A study of Mus musculus with 7 samples.

Results

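The EGR and AP-1 immediate early factors are transcription factor genes that cells switch on within minutes of a stimulus. The 10 genes described here are Egr1, Egr2 and Egr3 of the EGR family, Jun, Junb and Jund of the JUN family, Fos, Fosb and Fosl2 of the FOS family, and Atf3 of the ATF family. They were picked by name from 22180 genes measured on 7 Affymetrix Mouse Gene 2.0 ST arrays, and all 10 were measured. A probe set had to carry exactly 1 gene symbol, and where a gene had several the one with the highest mean over the 7 arrays was kept. That choice arose for Jund alone, since the 10 genes had 11 probe sets in all. Values are log2 intensities, so a step of 1 is a doubling. Levels were compared within a gene across arrays. Between genes only the change of a ratio from array to array is read.

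EGR proteins bind GC-rich DNA through zinc fingers, and in mice Egr1 and Egr2 are known to favour the macrophage over the neutrophil fate of myeloid progenitors. AP-1 is a dimer of basic leucine zipper proteins in which FOS proteins need a JUN partner, whereas JUN proteins can also pair with each other. MAP kinases drive the rapid transcription of these genes through serum response factor (SRF), ETS and CREB/ATF factors already bound at their promoters, and in macrophages microbial products, cytokines and growth factors are known triggers. Tissue digestion and cell handling are known to induce them as well.

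Rictorfl/fl LysM+/cre colon macrophages gave 4 arrays, and in these mice 1 copy of the Lyz2 (LysM) locus carries cre recombinase, expressed in macrophages, monocytes and neutrophils. Rictorfl/fl LysM+/+ colon macrophages, the controls without cre, gave 3 arrays. Rictor codes for a defining subunit of the mTORC2 kinase complex, and both groups carried its floxed alleles. Both had colitis from 5% dextran sulphate sodium over 5 days and then 3 days on plain water, and both were sorted from digested colon as CD45+ CD11b+ CD64+ MHCII+ Ly6C- cells. Cre without floxed Rictor was not included, so effects of Rictor loss, of cre and of the lost Lyz2 copy cannot be told apart. The labels state neither age nor strain background, nor whether a sample was 1 mouse or a pool, so the spread between arrays may be partly technical.

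Array medians lay between 5.16 and 5.22. Rictor read 7.72, 7.76, 8.25 and 7.80 on LysM+/cre arrays 1 to 4 and 7.76, 7.74 and 7.80 on LysM+/+ arrays 1 to 3 (log2 difference 0.12 ± 0.13 SE, adjusted p = 0.749 in limma), and since it is not known whether this probe set lies in the deleted part, the genotypes are those of the labels. Lyz2 averaged 10.08 with cre and 10.20 without, and its arrays overlapped (log2 difference -0.13 ± 0.13 SE, adjusted p = 0.722 in limma). All 13 macrophage markers lay above the median gene, with a mean level of 11.15 to 11.48 on LysM+/cre arrays and 11.13 to 11.33 on LysM+/+ arrays. At an unadjusted p under 0.05, 2 of them were higher with cre, the sort markers Fcgr1 (CD64) at 0.97 ± 0.26 (SE) and Itgam (CD11b) at 0.53 ± 0.19 (SE), and Cd68 was lower at -0.20 ± 0.08 (SE). None passed the adjustment, and their part in the results was not tested.

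The 250 bases before the transcription start are printed, with motif matches marked, for 4 of these genes: Jun, Fos, Atf3 and Egr2. They were chosen after the values and motif matches were seen, as genes with a match that stand at different sizes of genotype difference. The sequences are from RefSeq, build GRCm38.p6, in the 5′ to 3′ direction of the gene. Of the 10 genes, 8 had an entry, and Egr1 and Egr3 did not. Capitals mark matches to the core of the cAMP response element (ACGTCA, or TGACGT on the other strand), to the AP-1/ATF-type element known from the Jun promoter (TGACATCA, or TGATGTCA), to the CArG box that SRF binds, and to the MEF2 site, all searched on both strands.
Jun: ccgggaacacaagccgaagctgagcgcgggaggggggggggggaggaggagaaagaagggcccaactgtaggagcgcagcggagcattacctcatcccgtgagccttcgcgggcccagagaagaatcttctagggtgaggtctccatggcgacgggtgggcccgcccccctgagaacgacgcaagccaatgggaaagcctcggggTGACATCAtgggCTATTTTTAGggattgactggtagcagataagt
Fos: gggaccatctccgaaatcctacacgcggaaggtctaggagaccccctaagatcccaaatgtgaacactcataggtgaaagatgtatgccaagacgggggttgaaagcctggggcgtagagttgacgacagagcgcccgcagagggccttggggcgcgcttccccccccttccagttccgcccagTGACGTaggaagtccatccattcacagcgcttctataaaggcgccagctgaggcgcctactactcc
Atf3: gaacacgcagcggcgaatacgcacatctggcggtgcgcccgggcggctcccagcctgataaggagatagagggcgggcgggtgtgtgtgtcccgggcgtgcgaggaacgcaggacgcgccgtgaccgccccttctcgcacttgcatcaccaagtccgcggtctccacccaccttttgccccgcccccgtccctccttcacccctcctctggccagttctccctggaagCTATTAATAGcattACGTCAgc
Egr2: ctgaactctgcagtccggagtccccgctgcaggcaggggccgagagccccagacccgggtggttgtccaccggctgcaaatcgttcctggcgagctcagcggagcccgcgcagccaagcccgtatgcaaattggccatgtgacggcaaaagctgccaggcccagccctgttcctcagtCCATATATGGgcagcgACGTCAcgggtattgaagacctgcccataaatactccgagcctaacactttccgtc
The Jun stretch is chr4:95052223-95052472 on the minus strand, and holds TGACATCA 45 to 38 bases and a MEF2 match 33 to 24 bases before the start. The Fos stretch is chr12:85473640-85473889 on the plus strand, with the cAMP response core 66 to 61 bases before the start. The Atf3 stretch is chr1:191183334-191183583 on the minus strand, with the core 8 to 3 bases and a MEF2 match 22 to 13 bases before the start. The Egr2 stretch is chr10:67537619-67537868 on the plus strand, 1 of 5 windows listed for that gene, with a CArG box 72 to 63 bases and the core 56 to 51 bases before the start. Among 32536 distinct stretches of 250 bases before gene starts, 6.50% held the core, 2.84% TGACATCA, 1.48% a CArG box and 0.513% a MEF2 match. The EGR site GCGNGGGCG, present in 4.74% of all stretches, was matched before Fosb and Fosl2. The AP-1 site TGANTCA, present in 6.73%, and the full cAMP response element TGACGTCA, which contains the core and was present in 1.56%, were matched before none of the 8. These matches describe the letters of each window, not binding, and sequence further upstream was not searched.

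The study compared LysM+/cre with LysM+/+ to ask about mTORC2 in macrophages, and the values below are differences between the labelled genotypes. Egr1 was 2.45-fold lower with cre, Jun 1.65-fold lower and Jund 1.38-fold lower, and every LysM+/cre array lay below every LysM+/+ array for each of them and for Atf3. Egr2, Egr3, Junb and Fosl2 had log2 differences between -0.11 and 0.07. Fos, Fosb and Atf3 had differences from -0.67 to -0.28, and from -0.14 to 0.0063 without LysM+/cre array 3 and LysM+/+ array 2. These arrays were chosen after the values were seen. They held the lowest and the highest value of Fos, Fosb, Atf3 and Egr1, so leaving them out could only raise those differences. None of the 10 passed an adjusted p of 0.05 in limma, nor did any of the 22180 genes (0%). At an unadjusted p under 0.05, 3 of 10 were lower and 0 higher, where 4.93% of all genes were lower and 6.56% higher. For 4 of 10 the genotypes' arrays were fully apart, all lower with cre, where 3.56% of all genes were lower and 5.23% higher in this way. Of the 10 differences 9 were below 0, where 48.6% of all genes were. The 10 genes were chosen with results of these data known, so these counts describe them and were not tested as a set.

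Egr1, the founding member of the EGR family, read 8.49, 9.08, 8.48 and 8.89 on LysM+/cre arrays 1 to 4, against 9.90, 10.34 and 9.85 on LysM+/+ arrays 1 to 3. The groups did not overlap, and the highest LysM+/cre array lay well under the lowest LysM+/+ array. The means were 8.73 ± 0.30 (SD, n = 4) with cre and 10.03 ± 0.27 (SD, n = 3) without, a log2 difference of -1.29 ± 0.19 (SE) with a 95% interval from -1.75 to -0.84. Its unadjusted p in limma was 0.000298, rank 21 of 22180 genes, and its adjusted p was 0.306. The difference was between -1.41 and -1.14 when any 1 array was left out, and -1.06 ± 0.19 (SE) without both LysM+/cre array 3 and LysM+/+ array 2. In bulk RNA of sorted cells, fewer cells expressing a gene and less RNA per cell cannot be told apart.

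Egr2, known in macrophages for its part in IL-4 responses, read 8.03, 8.13, 7.67 and 8.08 with cre and 8.11, 8.50 and 7.64 without. The lowest value of all was LysM+/+ array 3 and the highest was LysM+/+ array 2, so the control arrays enclosed the LysM+/cre arrays. The log2 difference was -0.11 ± 0.21 (SE, 95% interval -0.61 to 0.39, adjusted p = 0.862 in limma), and it was 0.098 without LysM+/+ array 2. Egr3, an EGR factor best known from lymphocytes and neurons, read 5.83, 6.64, 6.23 and 6.44 with cre and 6.57, 6.35 and 6.23 without. The groups overlapped, and the low value was LysM+/cre array 1. Its log2 difference was -0.10 ± 0.20 (SE, 95% interval -0.56 to 0.37, adjusted p = 0.868 in limma).

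The EGR genes were also compared within each array. The log2 ratio of Egr1 to Egr2 was 0.45, 0.95, 0.81 and 0.81 on LysM+/cre arrays 1 to 4 and 1.79, 1.83 and 2.21 on LysM+/+ arrays 1 to 3. The difference of the means was -1.18, with no overlap. The log2 ratio of Egr1 to Egr3 averaged 2.45 ± 0.17 (SD, n = 4) with cre and 3.65 ± 0.33 (SD, n = 3) without. That of Egr1 to Fos averaged -0.37 ± 0.26 with cre and 0.64 ± 0.14 without. Only the change of such a ratio between arrays can be read, since its size depends on the probes. These pairs were chosen after their values were seen and were not tested.

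**Figure D1:**
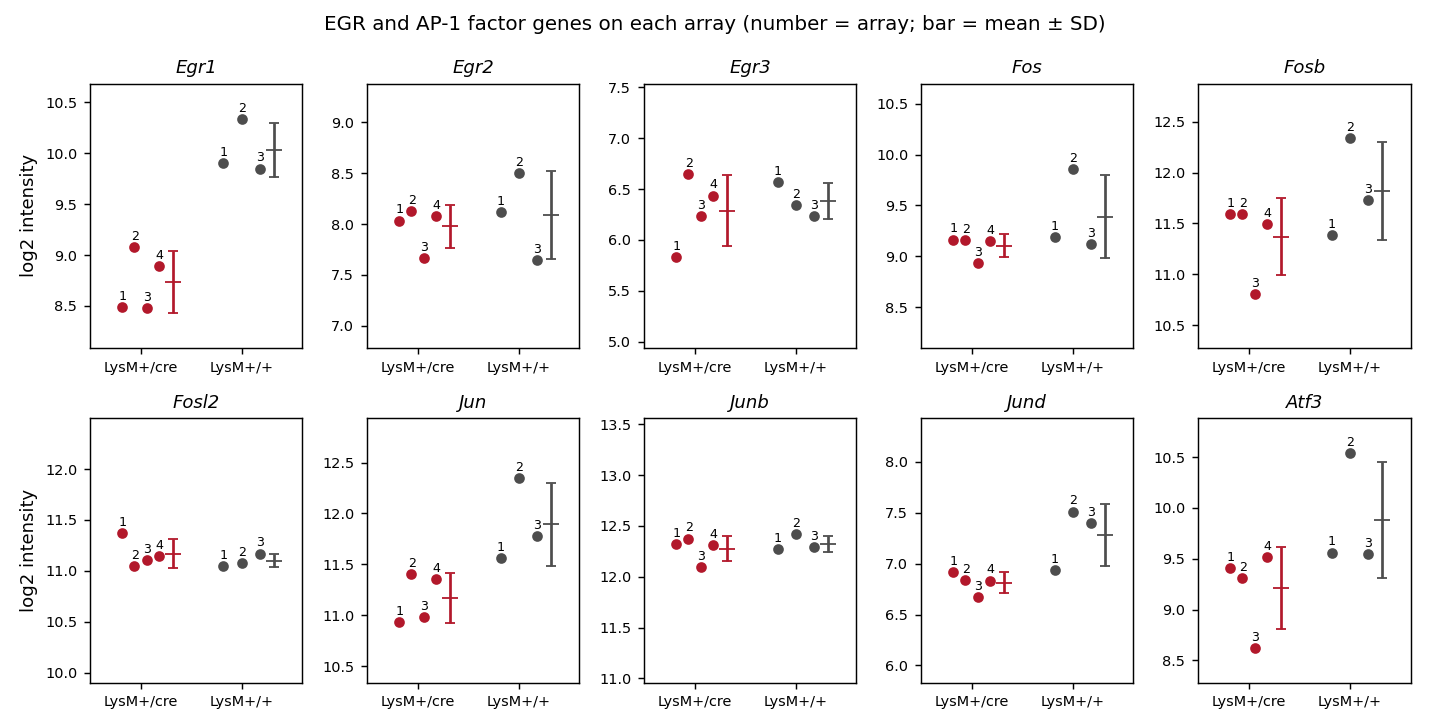
Log2 intensity (y axis, each panel spans the same number of log2 units) of the 10 genes on the LysM+/cre arrays (red, left) and LysM+/+ arrays (grey, right). Points are single arrays with their number, and bars are mean ± SD. The LysM+/cre arrays of Egr1 lie at 8.48 to 9.08, all below the LysM+/+ arrays at 9.85 to 10.34, and LysM+/+ array 2 is the top point for Fos, Fosb, Jun and Atf3.

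In the JUN family, Jun, the classical AP-1 subunit activated by JNK, read 10.94, 11.40, 10.98 and 11.36 on LysM+/cre arrays and 11.56, 12.34 and 11.78 on LysM+/+ arrays. The groups did not overlap, although LysM+/cre arrays 2 and 4 came close to LysM+/+ array 1. The means were 11.17 ± 0.24 (SD, n = 4) with cre and 11.89 ± 0.41 (SD, n = 3) without. The log2 difference was -0.72 ± 0.21 (SE, 95% interval -1.23 to -0.22, unadjusted p = 0.0119, adjusted p = 0.394 in limma). It was -0.50 without LysM+/+ array 2, and -0.43 ± 0.18 (SE, unadjusted p = 0.0635) without that array and LysM+/cre array 3.

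Jund, the JUN member that is expressed in resting cells and responds least to stimuli, read 6.92, 6.84, 6.67 and 6.83 with cre and 6.94, 7.51 and 7.40 without. LysM+/+ array 1 sat just above the LysM+/cre arrays, and LysM+/+ arrays 2 and 3 were higher. The log2 difference was -0.47 ± 0.14 (SE, 95% interval -0.81 to -0.13, unadjusted p = 0.0141, adjusted p = 0.394 in limma). Its second and dimmer probe set read 6.03, 6.29, 6.46 and 6.70 with cre and 6.27, 6.84 and 6.60 without, which overlapped, with a log2 difference of -0.20 ± 0.19 (SE). With the mean of both probe sets the difference was -0.33 (unadjusted p = 0.0541). The brighter probe set alone differed by -0.36 without LysM+/+ array 2 and by -0.41 without LysM+/+ array 3 (unadjusted p = 0.0513 and 0.0534).

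Junb, an AP-1 subunit that often opposes Jun, read 12.32, 12.37, 12.10 and 12.31 with cre and 12.27, 12.42 and 12.29 without. All arrays but LysM+/cre array 3 lay close together. The log2 difference was -0.05 ± 0.08 (SE, 95% interval -0.25 to 0.15, adjusted p = 0.842 in limma). The log2 ratio of Jun to Junb averaged -1.11 ± 0.20 (SD, n = 4) with cre and -0.43 ± 0.33 (SD, n = 3) without, and its arrays did not overlap either.

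In the FOS family, Fos, the partner of Jun in classical AP-1, read 9.17, 9.16, 8.94 and 9.15 with cre and 9.19, 9.86 and 9.12 without. Of the 7 arrays, 5 lay between 9.12 and 9.19, with LysM+/+ array 2 above them and LysM+/cre array 3 below. The log2 difference was -0.28 ± 0.18 (SE, 95% interval -0.72 to 0.15, adjusted p = 0.579 in limma), -0.049 without LysM+/+ array 2 and 0.0063 ± 0.057 (SE) without both of these arrays. Fosb, a further FOS member induced by stimulation, read 11.59, 11.59, 10.81 and 11.49 with cre and 11.39, 12.34 and 11.73 without. The groups overlapped, and the same 2 arrays were the highest and the lowest. The log2 difference was -0.45 ± 0.28 (SE, 95% interval -1.11 to 0.21, adjusted p = 0.564 in limma), and -0.0032 ± 0.12 (SE) without both arrays.

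Fosl2, which encodes the FOS-related factor Fra-2 and is induced later and for longer than Fos, read 11.37, 11.05, 11.11 and 11.14 with cre and 11.05, 11.07 and 11.17 without. It was the only one of the 10 genes with a difference above 0, at 0.07 ± 0.09 (SE, 95% interval -0.14 to 0.28, adjusted p = 0.780 in limma), and that was 0.0016 without LysM+/cre array 1. Neither LysM+/+ array 2 nor LysM+/cre array 3 stood apart for Fosl2.

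Atf3, a stress-induced CREB/ATF family member that restrains inflammatory gene expression in macrophages, read 9.41, 9.31, 8.62 and 9.51 with cre and 9.56, 10.54 and 9.54 without. The groups did not overlap, but LysM+/cre array 4 came within a few hundredths of LysM+/+ array 3. The means were 9.21 ± 0.40 (SD, n = 4) with cre and 9.88 ± 0.57 (SD, n = 3) without, a log2 difference of -0.67 ± 0.31 (SE, 95% interval -1.42 to 0.08, adjusted p = 0.466 in limma). It was -0.34 without LysM+/+ array 2 and -0.14 ± 0.082 (SE) without that array and LysM+/cre array 3.

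**Figure D2:**
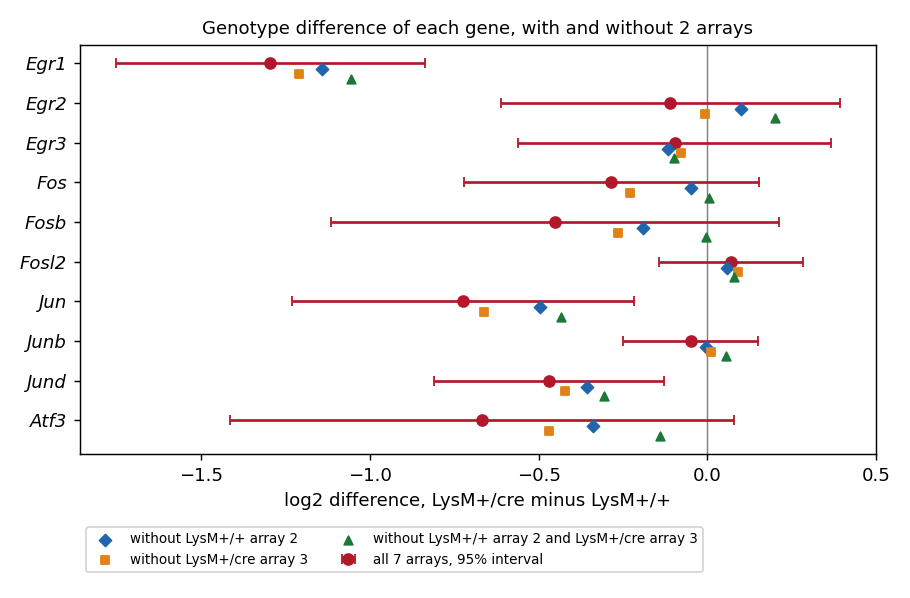
Log2 difference between LysM+/cre and LysM+/+ (x axis) of each gene (y axis). Red points with bars are the difference and 95% interval over all 7 arrays, and the other symbols are the differences without LysM+/cre array 3, without LysM+/+ array 2 and without both. Without both arrays Egr1 is at -1.06, Fos at 0.0063 and Fosb at -0.0032. The arrays were chosen after the data were seen and hold the lowest and highest values of these genes. Leaving them out could therefore only raise the differences.

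Most of these genes were highest on the same array, and most were lowest on another. LysM+/cre array 3 was the lowest of the 7 arrays for 6 of the 10 genes, where it was the lowest for 12.7% of all genes. LysM+/+ array 2 was the highest for 8 of the 10, where it was the highest for 16.5% of all genes. The mean deviation of the 10 genes from their own means was -0.18, -0.029, -0.43 and -0.065 on LysM+/cre arrays 1 to 4 and 0.068, 0.54 and 0.090 on LysM+/+ arrays 1 to 3. LysM+/+ array 2 exceeded the mean of the other two LysM+/+ arrays by 0.99 for Atf3, 0.78 for Fosb, 0.71 for Fos, 0.68 for Jun and 0.46 for Egr1, where the median size of that gap over all genes was 0.13. For the remaining genes this gap was 0.62 for Egr2, 0.34 for Jund, 0.13 for Junb, -0.04 for Fosl2 and -0.06 for Egr3. The gap between LysM+/cre array 3 and the mean of the other LysM+/cre arrays was -0.79 for Atf3 and -0.75 for Fosb, where the median size over all genes was 0.11. It was smaller for the remaining genes, at -0.41 for Egr2, -0.34 for Egr1, -0.25 for Jun and -0.24 for Junb. Fos was at -0.22, Jund at -0.19, Fosl2 at -0.08 and Egr3 at -0.07.

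With deviations taken from each genotype's own mean, so that the genotype difference is removed, 27 of the 45 pairs of genes correlated above 0.5 over the 7 arrays and 9 correlated below 0 (median 0.65). Fosb and Atf3 were the closest pair at 0.94, and Egr1 went most closely with Jun at 0.91. Egr3 and Fosl2 ran opposite to each other at -0.92. These correlations share the same 7 arrays and are a description with no test. The share of pairs above 0.5 was not computed over all genes. Whether 27 of 45 is more than among other genes is therefore not known.

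**Figure D3:**
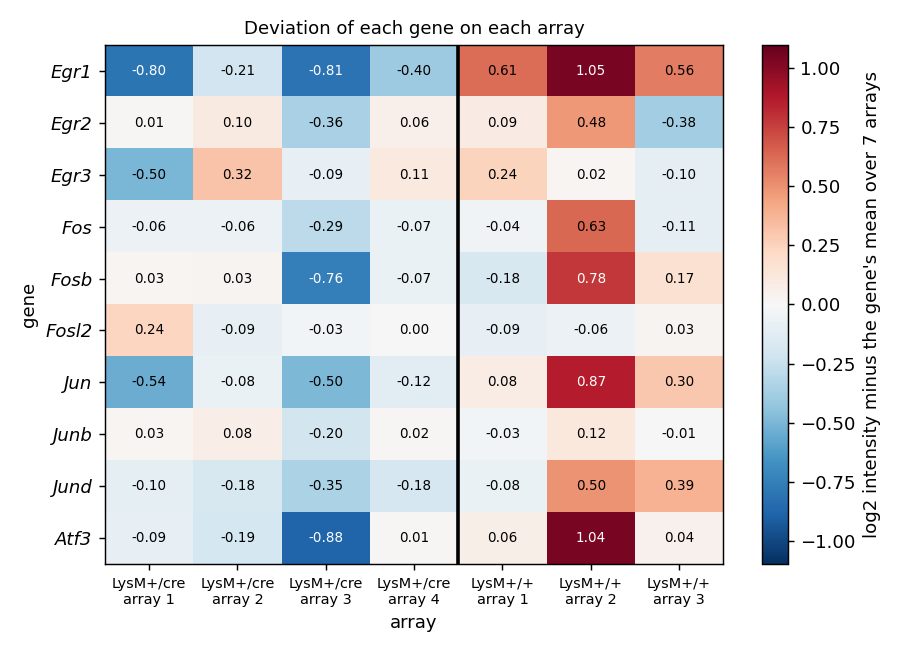
Deviation of each gene's log2 intensity from its mean over 7 arrays (colour and printed number), with genes as rows, LysM+/cre arrays left of the line and LysM+/+ arrays right of it. Egr1 is below its mean on all 4 LysM+/cre arrays, and the column of LysM+/+ array 2 is raised for 8 of the 10 genes, which are highest there.

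Markers of other cells moved with some of these values. The neutrophil score, the mean deviation of 12 neutrophil markers, was highest on LysM+/cre array 3 and lowest on LysM+/+ array 2, the arrays on which most of the 10 genes were lowest and highest. It ran from -0.40 to 1.50 on LysM+/cre arrays and from -1.33 to 0.40 on LysM+/+ arrays, and all 12 markers had a mean that was higher with cre, 1 of them at an unadjusted p under 0.05. With this score as a covariate in limma the log2 differences were -1.18 ± 0.20 (SE) for Egr1, -0.56 ± 0.20 for Jun, -0.33 ± 0.11 for Jund, -0.31 ± 0.15 for Atf3, -0.13 ± 0.13 for Fosb and -0.12 ± 0.15 for Fos. All of these were closer to 0 than without the score. The fibroblast and smooth muscle score ran from -0.35 to 0.16 on LysM+/cre arrays and from 0.013 to 0.40 on LysM+/+ arrays, and 11 of its 15 markers had lower means with cre, 6 of them at an unadjusted p under 0.05. All 15 lay above the median gene. Dcn, the matrix proteoglycan decorin, had the largest difference of the 15, at 10.07 with cre and 11.44 without. The 4 markers with higher means with cre were Mgp at 0.24, Col3a1 at 0.17, Thy1 at 0.09 and Col1a1 at 0.04, and Col1a2 was at -0.03. With that score as a covariate the log2 differences were -1.13 ± 0.28 (SE) for Egr1, -0.74 ± 0.32 for Jun (unadjusted p = 0.0629), -0.64 ± 0.19 for Jund (unadjusted p = 0.0163), -0.88 ± 0.46 for Atf3, -0.60 ± 0.41 for Fosb and -0.45 ± 0.26 for Fos. Those of Jund, Atf3, Fosb and Fos were further below 0 than without the score, and that of Egr1 was closer to 0. That of Jun changed little, from -0.72 ± 0.21 (SE) without the score. Endothelial scores ran from -0.14 to -0.0056 with cre and from -0.27 to 0.45 without. Of 10 endothelial markers 9 had lower means with cre, 0 at an unadjusted p under 0.05. Epithelial scores ran from -0.59 to 0.32 with cre and from -0.67 to 0.73 without. Of 12 epithelial markers 11 had lower means with cre, 2 at an unadjusted p under 0.05. Lymphocyte scores ran from -0.20 to 0.13 with cre and from -0.11 to 0.15 without. Of 10 lymphocyte markers 5 had lower means with cre, and 2 were higher at an unadjusted p under 0.05. Over all genes 48.6% had lower means with cre. The part of any of these cells in the results was not tested.

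The genes whose pattern was closest to that of Egr1, by Pearson correlation of deviations from the genotype means over 7 arrays among 10398 candidates, were Myo7a (0.98), Marveld1 (0.98), Mrps10 (0.98), Hspa1b (0.97) and Pacs2 (0.97). Of these, Hspa1b, an inducible heat shock gene, was lower with cre by a log2 difference of -0.66 ± 0.24 (SE) and Marveld1 by -0.73 ± 0.23 (SE), while Mrps10, a mitochondrial ribosomal protein gene, had a difference of 0.31 ± 0.11 (SE). For Fos they were Top2b, Pik3cg, Neu4, Mbp and Arf2, all at 0.99 or above. Fos was high on LysM+/+ array 2 alone, which weighs most in these correlations. The names are a description with no test.

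The pathway around the 10 genes was described from 7 lists with 128 gene symbols, and 114 genes were measured. A few of the symbols are an older name of a gene listed under its newer name too. None passed an adjusted p of 0.05 in limma (smallest 0.303). At an unadjusted p under 0.05, 31 genes, or 27.2%, were lower with cre and 6, or 5.26%, higher, against the 4.93% and 6.56% of all genes given above. The lists were chosen with earlier results known and were not tested as sets. The median log2 difference of all genes was 0.0044 and that of the 10 factors was -0.37.

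Upstream of the factors, the 11 measured genes of SRF, its ternary complex partners and related cofactors had a median difference of 0.03, with 1 lower and 0 higher at an unadjusted p under 0.05. That gene was Mef2a, a MEF2 factor, at -0.43 ± 0.13 (SE), while Srf itself was at 0.22 ± 0.15 (SE). Creb1 was at 0.09 ± 0.08 (SE) and Mef2c at -0.54 ± 0.52 (SE). Of 16 MAP kinase cascade genes the median was 0.10, with 2 lower and 3 higher. Map3k8, which encodes the kinase Tpl2 that couples Toll-like receptors to ERK, was lower at -0.53 ± 0.18 (SE), with 8.30, 8.44, 8.43 and 8.25 on LysM+/cre arrays and 8.63, 9.35 and 8.68 on LysM+/+ arrays. Map2k3, an activator of p38, was at -0.21 ± 0.07 (SE), Map2k4, an activator of JNK, at 0.54 ± 0.18 (SE), and Map2k2, an activator of ERK, at 0.35 ± 0.13 (SE).

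Among 12 other EGR and AP-1 family genes and EGR co-repressors the median was -0.03, with 2 lower and 1 higher at an unadjusted p under 0.05. Atf7 and Atf2, which encode partners of Jun, were lower by log2 differences of -0.44 ± 0.14 and -0.23 ± 0.08 (SE). Nab2, an EGR target whose protein represses EGR factors, was higher at 0.24 ± 0.09 (SE), reading 8.75, 9.05, 8.86 and 8.75 with cre and 8.64, 8.62 and 8.58 without. Its direction was thus opposite to that of Egr1. Mafg, a small MAF factor, was at -0.22 ± 0.13 (SE).

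The 30 other immediate early genes had a median of -0.34, with 24 differences below 0. At an unadjusted p under 0.05, 12 were lower and 1 higher. Gadd45g, a stress and growth arrest gene, read 7.40, 7.70, 7.22 and 7.48 with cre and 8.72, 8.73 and 8.38 without, a log2 difference of -1.16 ± 0.14 (SE, adjusted p = 0.303 in limma). Cebpd, an inflammation-induced C/EBP factor, was at -0.99 ± 0.19 (SE), Klf10, a TGF-beta induced repressor, at -0.58 ± 0.12 (SE), and Nfkbiz, an atypical IkB protein, at -0.50 ± 0.11 (SE). The higher one was Ier3, named here after its value was seen, at 0.70 ± 0.18 (SE).

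Of 15 MAP kinase phosphatases and feedback inhibitors the median was -0.14. At an unadjusted p under 0.05, 3 were lower (Dusp8, Dusp1 and Spry1) and 0 higher. Dusp8, a phosphatase for JNK and p38, was at -0.57 ± 0.14 (SE) and Spry1, an inhibitor of receptor tyrosine kinase signalling, at -0.24 ± 0.09 (SE). Dusp7, an ERK phosphatase, was at -0.27 ± 0.13 (SE, unadjusted p = 0.0715 in limma) and is not among the 3. Dusp1, the main inducible phosphatase of macrophages, read 12.54, 12.55, 12.62 and 12.58 with cre and 12.66, 12.77 and 12.73 without, which did not overlap but differed by only -0.15 ± 0.06 (SE).

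Of 18 measured textbook targets of AP-1 and EGR factors the median was -0.10, with 5 lower and 1 higher at an unadjusted p under 0.05. Hbegf, an EGF receptor ligand, was at -0.84 ± 0.16 (SE), Plau, the urokinase plasminogen activator, at -0.66 ± 0.16 (SE), the adhesion molecule gene Icam1 at -0.53 ± 0.14 (SE), and the monocyte chemokine gene Ccl2 at -0.999 ± 0.264 (SE). The higher one was Mmp9, named after its value was seen, at 1.35 ± 0.45 (SE), which is also one of the neutrophil markers. All 12 measured heat shock genes had differences below 0, with a median of -0.50 and 6 lower at an unadjusted p under 0.05. They included the co-chaperone gene Dnajb1 at -0.65 ± 0.15 (SE), Hsp90aa1 at -0.52 ± 0.14 (SE), Hspb1 at -1.01 ± 0.31 (SE) and Bag3 at -0.48 ± 0.17 (SE). The mean deviation of these 12 genes ran from -0.42 to 0.014 on LysM+/cre arrays and from 0.073 to 0.55 on LysM+/+ arrays, lowest on LysM+/cre array 3 and highest on LysM+/+ array 2. Whether stress during isolation had a part in the values of either group of genes was not tested.

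**Figure D4:**
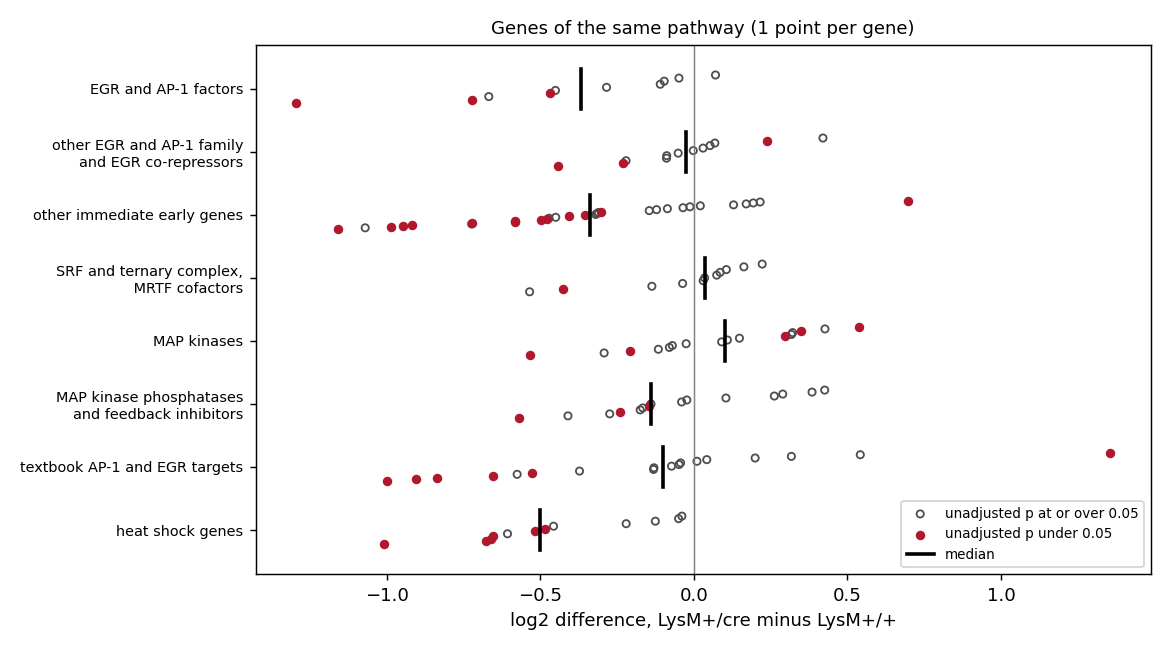
Log2 difference between LysM+/cre and LysM+/+ (x axis), 1 point per gene, for the 10 factors and 7 lists of related genes (y axis). Filled points have an unadjusted p under 0.05 in limma and bars are medians. Heat shock genes (median -0.50) and other immediate early genes (median -0.34) lie to the left like the 10 factors (median -0.37), and the MAP kinase list has a median of 0.10.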

How the data were processed

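Total RNA of sorted colon macrophages was hybridised to 1 array for each of 4 LysM+/cre and 3 LysM+/+ samples. Each probe set has a log2 intensity as deposited. The authors obtained it with Affymetrix Expression Console according to the design text, and the submitters' processing notes list Transcriptome Analysis Console too. How probes were summarised and backgrounds corrected, and software versions, are not stated there. Array medians were nearly equal. If the arrays were normalized together, a change common to all genes would not be seen. Of 41345 probe sets, 23521 carried exactly 1 symbol in the platform annotation, 1814 several, and the rest were unnamed here. The brightest probe set per gene over all arrays left 22180 genes, with no filter on dim ones.

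The limma package 3.58.1 (lmFit, eBayes, R 4.3.3) tested LysM+/cre minus LysM+/+ in a two-sided comparison without covariates, and p-values were adjusted across all genes by Benjamini-Hochberg with a threshold of 0.05. The number of arrays limits the precision. The code was tested on simulated data. The 10 genes and all lists were chosen with earlier results of these data known. Named beside the 10 were up to 4 genes of smallest p per list and the 5 closest patterns to Egr1 and Fos. Ier3, Mmp9, the Klf and Nr4a genes of the closing section and single marker genes were named after their values were seen. Motifs were counted in RefSeq stretches of 250 bases. Figures were drawn with matplotlib 3.10.9.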

Additional observations from a re-analysis of the deposited data

Results flagged for a closer look

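In 38 checks, each of 1 named gene on the 4 LysM+/cre arrays, a single array stood far from the other three by Dixon's criterion for 3 genes, and chance gives about 1 in 20. Fos read 8.94 on LysM+/cre array 3, below the other LysM+/cre arrays at 9.15 to 9.17. Fosb read 10.81 on the same array, below the other LysM+/cre arrays at 11.49 to 11.59. Creb1 read 9.49 on LysM+/cre array 4, above the other LysM+/cre arrays at 9.29 to 9.32. The LysM+/+ group, with 3 arrays, was not checked in this way.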

How the results depend on the processing

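The differences of the 10 genes were recomputed under 19 alternatives, 12 of them other than leaving out 1 array, and 172 of 190 values kept their direction and their side of an unadjusted p of 0.05. Egr1 kept both under all 19. With the fibroblast score as a covariate the 37 context genes at an unadjusted p under 0.05 became 22, while the count over all genes went to 684 lower and 935 higher, against 1093 and 1456 without it. In that fit Egr3 turned to 0.30 and Fosl2 to -0.052. With the neutrophil score as a covariate Egr2 turned to 0.053 and Junb to 0.024. Without LysM+/cre array 3 and LysM+/+ array 2, chosen after the data were seen, 1 of the 10 genes (Egr1) was lower at an unadjusted p under 0.05 in place of 3. Most of the 10 genes were lowest or highest on these arrays, so a rise of their differences was built into this choice. In that fit 4.64% of all genes were lower at this threshold, and Egr2 turned to 0.20, Fos to 0.0063 and Junb to 0.056. Leaving out 1 array gave 2 to 3 of the 10 genes lower at this threshold, where 3.23% to 5.51% of all genes were. Egr2 then lay between -0.33 and 0.098, Egr3 between -0.22 and 0.056, and Junb between -0.081 and 0.011. With the replicate number as a block, Atf3 came to -0.77 (unadjusted p = 0.0371) and Jund to -0.48 (unadjusted p = 0.0591). Same-numbered arrays correlated in their deviations at -0.11, 0.12 and 0.10, so the numbers were not taken to pair the samples. The cause of these changes was not tested.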

Other observations

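Genes of other immediate early families are given here after their values were seen. The Kruppel-like factor gene Klf2, which restrains inflammatory activation in myeloid cells, read 6.87, 6.74, 6.46 and 7.18 on LysM+/cre arrays and 7.29, 9.08 and 7.28 on LysM+/+ arrays, so that LysM+/+ array 2 alone was high. Klf4 read 9.54, 9.59, 8.91 and 9.39 with cre and 9.31, 11.03 and 9.91 without, with the same array high. Klf6 differed by -0.48 ± 0.15 (SE) and its arrays did not overlap. The nuclear receptor genes of the NR4A group, which are immediate early genes too, lay at -0.47 ± 0.21 (SE) for Nr4a1, -0.01 ± 0.35 for Nr4a2 and -0.31 ± 0.32 for Nr4a3. None of these passed the adjustment over all genes in limma.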
